A study of Mus musculus with 14 samples.

Results

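Kdm6a, the gene knocked out in these mice and also called Utx, was examined with 9 other genes that write or erase histone marks: Kdm6b, Kdm1a, Kdm2a, Kdm2b, Kdm4a, Kdm5a, Kdm5b, Ep300 and Crebbp. The 10 genes were chosen by name, of 21887 protein-coding genes, as enzymes that could act beside or in place of UTX. Each gene was read over its annotated span plus 5 kb on either side (its window). The libraries came from lineage-depleted (Lin-) bone marrow progenitors of C57BL/6 mice, either UTX KO (Utx-/-, deficient for UTX) or UTX WT (Utx +/+). ChIP-seq for H3K27ac and for H3K27me3 gave 2 KO and 2 WT libraries each. UTX itself was precipitated in 2 WT libraries, and 1 WT library with IgG, named as the control of a BCOR precipitation, gave the background. The age and sex of the mice, the part of Kdm6a that was removed and the tissues in which it was removed are not given in the sources used here, nor is it stated whether libraries of 1 group came from separate animals. All p-values therefore measure the spread between these libraries, which may be technical.

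UTX removes methyl groups from lysine 27 of histone H3, the mark that Polycomb complexes place on silent genes, and also works without this activity as a subunit of the MLL3 and MLL4 complexes at enhancers. The acetyltransferases p300 (Ep300) and CBP (Crebbp) place H3K27ac, the mark of active promoters and enhancers, on the same lysine. Kdm6b (JMJD3) is the nearest relative of UTX that also erases H3K27me3, and Uty is a Y-linked relative of Kdm6a with little or no demethylase activity. Several of these enzymes are known regulators of blood formation, among them LSD1 (Kdm1a), which is required for erythroid and granulocytic maturation.

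The H3K27ac libraries held between 9330823 and 15256696 reads in islands (stretches that the authors' caller found enriched), the H3K27me3 libraries between 2347442 and 2743508, the UTX libraries 816567 and 1834418, and the IgG library 154029. Values are given in rpm, which are reads per 1000000 island reads of the library, from the islands that met a window or region. The smallest island that a library held was 1.57 to 2.17 rpm for H3K27ac, 5.29 to 8.38 rpm for H3K27me3 and 10.9 to 17.1 rpm for UTX. It was 117 rpm for IgG, so weaker background could not appear there. KO and WT libraries also differed in cell type markers. Of the erythroid marker windows tested, 7 of 7 fell in H3K27ac in KO (edgeR, adjusted p under 0.05), with a summed level of 369 and 401 rpm in KO against 1137 and 1347 rpm in WT over 10 genes. Of the B cell marker windows tested, 7 of 9 rose, with sums of 868 and 1227 rpm in KO against 457 and 407 rpm in WT. Among the other lists, 2 of 8 granulocyte and monocyte windows and 3 of 4 stromal and endothelial windows rose, 2 of 7 megakaryocyte windows fell, and none passed among 5 T and NK cell and 9 stem and progenitor windows. The megakaryocyte sums were 472 and 503 rpm in KO and 873 and 1092 rpm in WT, the granulocyte and monocyte sums 1067 and 937 rpm in KO and 714 and 784 rpm in WT, and the stromal and endothelial sums 617 and 618 rpm in KO and 333 and 328 rpm in WT. Of the 10 stem and progenitor markers that fit the label of the cells, 9 had H3K27ac in all 4 libraries. By unadjusted edgeR p under 0.05, 2 of the T and NK cell windows were higher and 5 of the stem and progenitor windows were lower in KO, and DESeq2 called 1 and 5 of them. Of the megakaryocyte windows 5 were lower by unadjusted p and 4 by DESeq2, and of the granulocyte and monocyte windows 3 and 2 were higher. By either count, 3 stromal and endothelial windows were higher and 1 lower, 8 B cell windows higher and 7 erythroid windows lower. Cd3e, Cd4, Cd8a, Ncr1, Procr, Col1a1, Col1a2, Pdgfra, Cxcl12 and Lepr had no H3K27ac island in any library. In bulk libraries such as these, fewer cells of a type and less mark per cell cannot be told apart, and the part of these marker differences in the results on the 10 genes was not tested.

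UTX occupied all 10 windows in WT progenitors, including that of its own gene. Occupied windows were those met by islands in each UTX library but by none in IgG. Of all protein-coding windows, 40.3% were occupied, and of the 12867 windows with an H3K27ac island in all 4 libraries, 66.7% were. All 10 genes were among these 12867 (58.8% of all windows), so the second share is the one to read the 10 genes against. No IgG island met any of the 10, while 4.80% of all windows had one.

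The promoters of 4 genes that carried both UTX and H3K27ac over the start are printed here, since H3K27ac of KO and WT is compared at these starts. They run 5′ to 3′ from 250 bases before to 50 bases after the annotated start, as given by RefSeq for build GRCm38.p6 (the assembly of mm10), and capitals mark CpG pairs. The Kdm6a promoter lies at chrX:18162325-18162624 on the plus strand, that of Kdm1a at chr4:136602674-136602973 on the minus strand, and that of Kdm5b at chr1:134559928-134560227 on the plus strand. Kdm2b, on the minus strand, is shown with its outer start, chr5:122989050-122989349, and with an internal start, chr5:122900318-122900617, which begins a shorter transcript.
Kdm6a: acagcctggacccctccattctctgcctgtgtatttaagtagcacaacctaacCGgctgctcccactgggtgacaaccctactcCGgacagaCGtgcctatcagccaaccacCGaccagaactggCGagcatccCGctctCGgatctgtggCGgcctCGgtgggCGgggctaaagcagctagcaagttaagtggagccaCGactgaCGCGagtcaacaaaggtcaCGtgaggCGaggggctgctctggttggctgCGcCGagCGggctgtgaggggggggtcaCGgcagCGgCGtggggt
Kdm1a: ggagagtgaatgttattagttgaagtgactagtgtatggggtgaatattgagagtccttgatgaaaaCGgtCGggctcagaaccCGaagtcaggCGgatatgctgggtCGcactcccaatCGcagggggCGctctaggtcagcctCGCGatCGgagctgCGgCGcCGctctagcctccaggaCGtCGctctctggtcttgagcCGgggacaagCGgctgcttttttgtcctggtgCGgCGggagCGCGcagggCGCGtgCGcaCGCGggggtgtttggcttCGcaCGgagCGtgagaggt
Kdm2b outer: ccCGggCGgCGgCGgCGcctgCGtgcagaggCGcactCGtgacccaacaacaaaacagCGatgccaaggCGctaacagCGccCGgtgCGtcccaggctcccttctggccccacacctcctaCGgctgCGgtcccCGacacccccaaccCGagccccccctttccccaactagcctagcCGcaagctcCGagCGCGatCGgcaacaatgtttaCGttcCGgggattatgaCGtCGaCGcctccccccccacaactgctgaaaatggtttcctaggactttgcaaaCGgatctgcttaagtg
Kdm2b internal: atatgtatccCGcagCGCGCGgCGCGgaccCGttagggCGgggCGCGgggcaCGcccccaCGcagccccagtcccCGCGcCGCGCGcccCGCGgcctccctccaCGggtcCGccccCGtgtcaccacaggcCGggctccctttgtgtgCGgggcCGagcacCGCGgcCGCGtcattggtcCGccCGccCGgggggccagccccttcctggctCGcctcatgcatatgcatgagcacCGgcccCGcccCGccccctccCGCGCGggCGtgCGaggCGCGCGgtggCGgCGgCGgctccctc
Kdm5b: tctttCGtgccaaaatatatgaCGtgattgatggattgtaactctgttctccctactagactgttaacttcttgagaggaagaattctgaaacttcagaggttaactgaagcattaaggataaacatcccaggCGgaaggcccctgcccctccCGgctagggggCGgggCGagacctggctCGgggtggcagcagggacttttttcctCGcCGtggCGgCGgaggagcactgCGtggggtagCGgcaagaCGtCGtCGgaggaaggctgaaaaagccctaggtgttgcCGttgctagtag

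All of these held more CpG pairs than the median promoter. Such pairs are the feature to which CXXC domains such as those of KDM2A and KDM2B bind. The Kdm6a promoter held 21 CpG pairs, that of Kdm1a 29, that of Kdm5b 17, the outer Kdm2b promoter 28 and the internal one 47. The median over 32817 mouse promoters of the same length was 7, and the printed ones stood at percentiles 68.6 (Kdm5b) to 98.6 (internal Kdm2b). Kdm2b also has an unprinted start close to the outer one, with 18 CpG pairs, and one close to the internal one, with 49. The unprinted promoters of Kdm4a, Ep300 and Crebbp held 13, 30 and 49. RefSeq promoters were matched for 7 of the 10 genes. Kdm6b, Kdm2a and Kdm5a had no entry, so distances at these 3 are given from the end with the lower coordinate. Short motifs were searched on both strands of the 7 genes' promoters. The ETS core CGGAAG was found in that of Kdm5b, 117 bases before the start (16.9% of all promoters hold it), and the AP-1 site TGACTCA in that of Kdm4a, 190 bases before the start (5.20%). CCAAT was found in those of Kdm1a and Kdm4a and in the internal Kdm2b promoter (37.4%), and the GATA site AGATAA in none of them (11.2%).

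**Figure D1:**
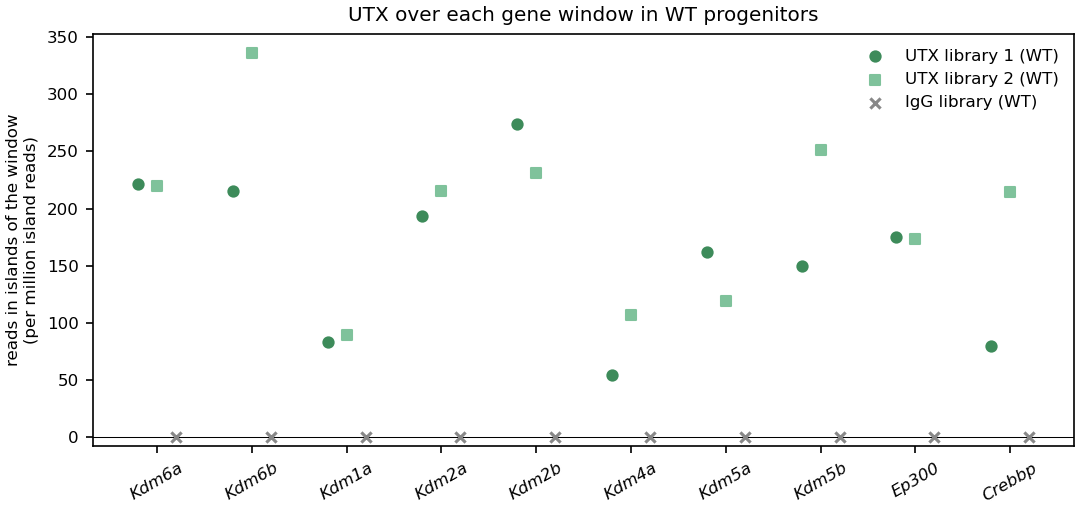
Reads in UTX islands of each gene's window, in rpm, in both UTX libraries and the IgG library of WT progenitors. Both UTX libraries are at 53.9 rpm or more at each of the 10 genes and IgG is at 0.

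Kdm6b carried the most UTX per length of the 10 genes. Over the Kdm6b window (gene at chr11:69398508-69420367, between Tmem88 and Dnah2) the UTX libraries held 216 and 336 rpm, 8.66 rpm per kb of window on average. That put Kdm6b at percentile 96.7 of all windows. Over the much longer Kdm6a window (gene at chrX:18160862-18279936) they held 222 and 220 rpm, or 1.71 rpm per kb, percentile 69.2. The other 8 genes ranged from 1.03 rpm per kb at Crebbp to 2.42 at Kdm5b, percentiles 59.7 to 76.7, and the next in order after Kdm6b, which were Kdm5b, Ep300 (2.30) and Kdm2a (2.21), were close together. This order rests on the division by window length, which at Kdm6b was the shortest of the 10 (31.9 kb). By the reads of the whole window Kdm6b stood at percentile 98.7, beside 98.2 for Kdm2b, 97.0 for Kdm6a, 96.1 for Kdm2a and 95.9 for Kdm5b. All these percentiles are over all protein-coding windows. Those with no UTX island are included and share percentile 20.5, so ranks among windows with UTX would be lower.

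UTX lay over the start of most of these genes. At Kdm6a the site in both libraries ran from 0.97 kb before to 3.63 kb after the start, with 145 and 165 rpm. At Kdm1a (chr4:136550533-136602787), Crebbp (chr16:4081334-4213957), Ep300 (chr15:81586209-81652077), Kdm5b (chr1:134560178-134632878) and both starts of Kdm2b (chr5:122870664-122989270), a site of both libraries also covered the start. At Kdm5a (chr6:120364099-120444574) the only site, with 162 and 119 rpm, covered the lower-coordinate end, which overlaps the end of Ccdc77. At Kdm6b the strongest site, 163 and 122 rpm, lay inside the gene, 9.69 to 14.1 kb from its lower end, and a weaker one of 52.7 and 72.5 rpm lay over Naa38 and Tmem88. Kdm2a (chr19:4316144-4398721) had one site near each end, 84.5 and 86.7 rpm at 15.5 to 18.3 kb and 109 and 129 rpm at 79.7 to 83.3 kb, the second also over 9430078G10Rik. Kdm4a (chr4:118136957-118180090) was the weakest case: its start met an island of UTX library 2 alone (44.2 rpm), and the site of both libraries, 53.9 and 62.1 rpm, lay outside the gene, beyond its far end, where it overlapped the upper-coordinate end of St3gal3. Without flanks, 9 of the 10 genes were occupied, all but Kdm4a.

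In all, 31 UTX sites met the 10 windows, of which 14 were in both libraries. All 14 overlapped H3K27ac islands of all 4 libraries, as did 93.8% of the 8012 UTX sites of both libraries genome-wide. Of the 17 sites in 1 library only, 9 overlapped H3K27ac in all 4 libraries, 4 in none, and 4 overlapped H3K27ac in at least 1 WT library but in no KO library. Of the 16478 sites in 1 UTX library genome-wide, 41.0% overlapped H3K27ac in all 4 libraries, 41.8% in none, and 8.05% were of the last kind. The last 4 at these genes were all in UTX library 2, at 2 places inside Kdm5b and 2 inside Crebbp, with 21.3 to 59.4 rpm.

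The comparison of KO with WT libraries asks whether other erasers and writers changed where UTX was missing. In H3K27ac, 0 of the 10 windows rose in KO and 1, Kdm5b, fell (edgeR's quasi-likelihood test, Benjamini-Hochberg adjusted p under 0.05 over 12867 windows). Of all windows tested, 8.82% rose and 10.1% fell, so counts of 0 and 1 in 10 are near what those shares give. The median log2 fold change of the 10 genes, KO over WT, was 0.0060, beside 0.012 for all windows, with a range of -0.93 to 0.27. By unadjusted edgeR p under 0.05, 0 were higher and 3 (Kdm5b, Crebbp and Kdm1a) were lower, where 18.4% of all windows were higher and 18.8% lower. DESeq2 called 0 higher and Kdm5b alone lower, where it called 13.4% of all windows higher and 15.3% lower. With 1 library left out, fewer windows passed: 2429 did with all 4, 611 without KO library 1, 432 without KO library 2, 858 without WT library 1 and 0 without WT library 2. Per kb of window, Kdm6b held 10.9 rpm in KO and 8.82 rpm in WT and Kdm4a 3.17 and 2.79 rpm, while the other 8 genes lay between 1.02 and 2.58 rpm in either group.

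**Figure D2:**
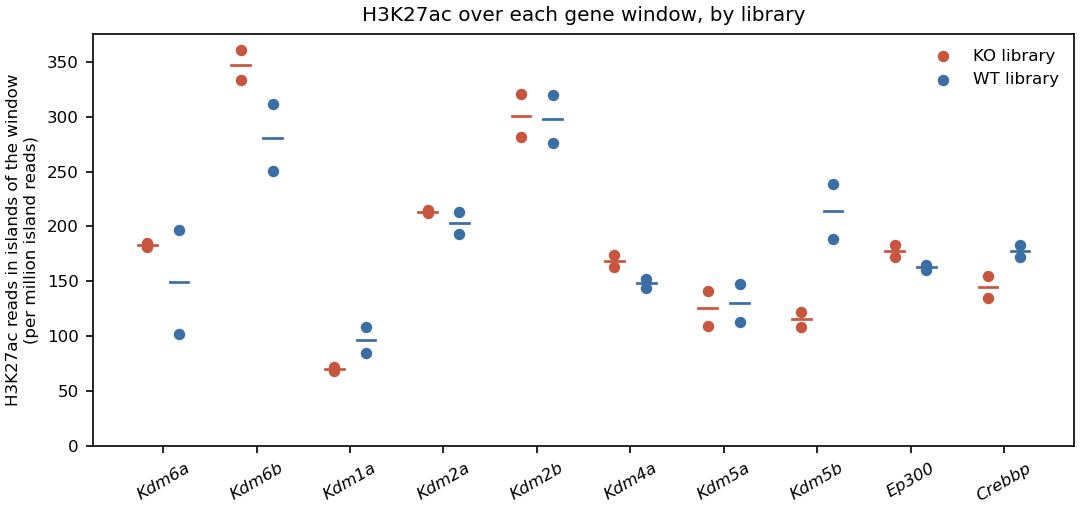
H3K27ac reads in islands of each gene's window, in rpm, in KO (left of each pair) and WT libraries, with a line at the mean of 2 libraries. Both KO libraries lie below both WT libraries at Kdm1a, Kdm5b and Crebbp, and above them at Kdm6b, Kdm4a and Ep300.

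At Kdm6a itself H3K27ac was present in the KO. The window held 181 and 185 rpm in KO and 197 and 102 rpm in WT. The KO libraries lay between the WT libraries, which differed from each other more than from the KO, and the log2 fold change was 0.26 (SE 0.314, adjusted p = 0.581). The island over the start held 160 and 157 rpm in KO and 170 and 94.6 rpm in WT, so the level turned on WT library 2. Without WT library 1 the region over the start was called higher in KO (0.58, adjusted p = 0.0216), and without WT library 2 it had the opposite sign (-0.17). H3K27me3 had no island over Kdm6a in any library. None of these islands shows whether the gene's product was lost, since UTX was not precipitated in KO cells and the removed part is unknown, so the knockout could not be checked here. The 3 windows most like that of Kdm6a across the 11 libraries, by Euclidean distance of log2(rpm + 1), were Mex3c (0.52), Cited2 (0.59) and Lrp8 (0.61).

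Uty had no island in any of the 11 libraries, KO or WT. No H3K27ac island met any of the 256 protein-coding genes of the Y chromosome, Kdm5d among them, so no H3K27ac island came from a Y-linked relative of UTX or of Kdm5b in either group. The H3K27ac libraries held no island anywhere on this chromosome, so the absence was not particular to these genes. The sex of the mice is not given, and whether the cells carried a Y chromosome was not tested.

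Kdm6b, the other H3K27 demethylase, had the most H3K27ac per length of the 10. Its window held 333 and 361 rpm in KO and 312 and 250 rpm in WT, or 347 ± 19.5 and 281 ± 43.3 rpm (SD, n = 2 each). Both KO libraries lay above both WT libraries, an order that 37.7% of all windows showed. The log2 fold change of 0.27 (SE 0.117) did not pass the test (adjusted p = 0.183). The broad region over the gene, 21.2 kb wide, held 270 and 295 rpm in KO and 248 and 197 rpm in WT, with a log2 fold change of 0.23 (SE 0.0987, adjusted p = 0.133). Without TMM scaling, that is by total island reads alone, this region was called higher (0.35, adjusted p = 0.0415). Per kb of window, Kdm6b stood at percentile 97.2 in KO and 95.9 in WT, over all windows, those without H3K27ac included.

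H3K27me3 at Kdm6b was limited to its upper-coordinate end. An island there held 44.3 and 31.9 rpm in KO and 39.4 and 39.9 rpm in WT. It covered 3 and 2.4 kb in KO and 4.4 and 3.4 kb in WT, of which 0.567 kb lay inside Kdm6b and most of the rest over Dnah2. The groups overlapped, and the log2 fold change was -0.12 (SE 0.366, adjusted p = 0.949). The sign turned when reads were taken per covered length (0.45), where the narrower KO islands held 14.8 and 13.3 rpm per kb and the WT islands 8.95 and 11.7.

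**Figure D3:**
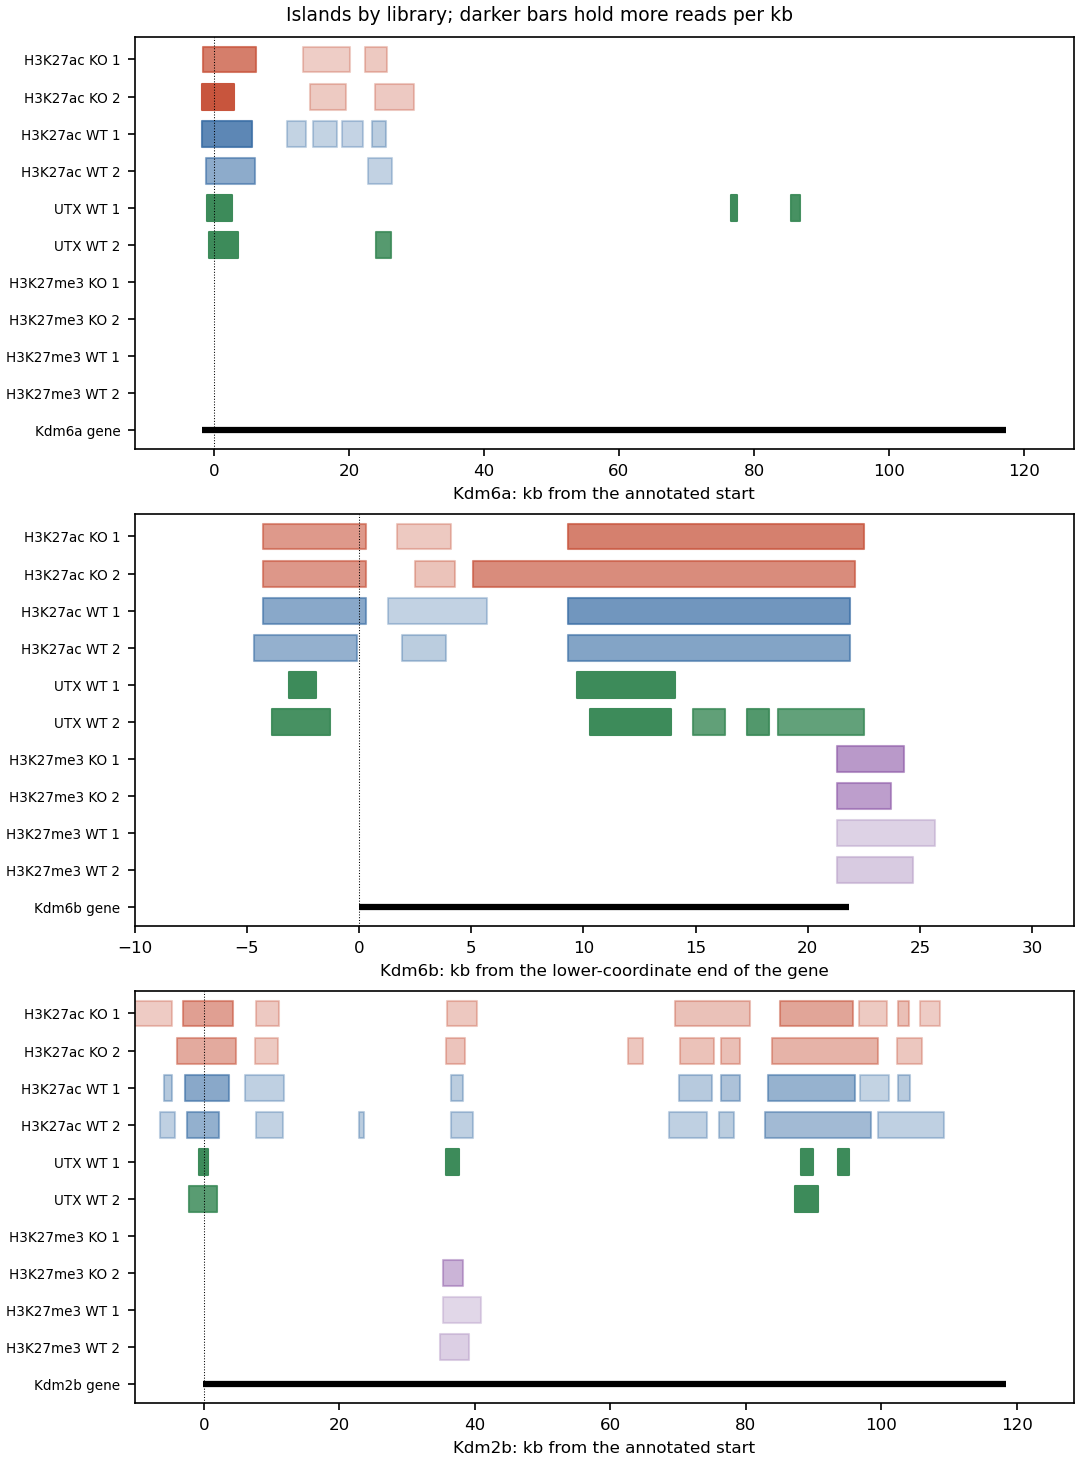
Islands of each library over Kdm6a, Kdm6b and Kdm2b, drawn to scale by distance in kb from the annotated start (from the lower-coordinate end at Kdm6b), with KO libraries above WT libraries for each mark. H3K27me3 islands lie at the upper end of Kdm6b and 35 to 41 kb into Kdm2b, where KO library 1 has none.

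Kdm5b, a demethylase of H3K4me3, the mark of active promoters, was the gene with the largest difference. Its window held 122 and 109 rpm of H3K27ac in KO and 189 and 239 rpm in WT, or 115 ± 9.52 and 214 ± 35.7 rpm (SD, n = 2 each). Both KO libraries lay below both WT libraries, and the log2 fold change was -0.93 (SE 0.178, adjusted p = 0.0377). By reads in islands, most of the difference lay inside the gene and not at its start. The island over the start held 90.6 and 84.6 rpm in KO and 95.8 and 90.2 rpm in WT. It was wider in KO, 7.6 and 6.4 kb against 5.8 and 5 kb in WT. Per kb it held 11.9 and 13.2 rpm in KO and 16.5 and 18.0 rpm in WT, a difference that was not tested. The other islands summed to 31.4 and 23.9 rpm in KO, from 2 islands each, and to 92.7 and 149 rpm in WT, from 6 islands each. In each library these include an island before the start, outside Kdm5b and over Mgat4e. That island held 12.1 and 10.4 rpm in KO and 15.2 and 10.6 rpm in WT.

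The Kdm5b islands of WT followed one another from the start to 58.4 kb into the gene. The merged region from 1.0 kb before to 24.2 kb after the start held 90.6 and 84.6 rpm in KO and 129 and 154 rpm in WT. It fell in KO, with a log2 fold change of -0.81 (SE 0.128, adjusted p = 0.00513 over 18820 regions). The next region, at 27.6 to 41.8 kb, held 19.3 and 13.5 rpm in KO and 21.3 and 46.6 rpm in WT (-1.19, adjusted p = 0.0689), and 2 more, at 43.2 to 48.6 and 53.4 to 58.4 kb, had an island in both WT libraries and in neither KO library. UTX of WT library 2 lay under the WT islands at 11.6 to 14.4 kb and 19.4 to 20.2 kb, where UTX library 1 had none.

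The Kdm5b window had fewer islands in KO and less length called as island. There were 3 islands in each KO library and 7 in each WT library, which covered 20 and 12.8 kb in KO and 30.4 and 49 kb in WT and held 6.10 and 8.48 rpm per covered kb in KO and 6.20 and 4.88 in WT. Per covered length the log2 fold change of the window was 0.40 (adjusted p = 0.600) and that of the region 0.69 (adjusted p = 0.142). The call on the window was lost without any 1 of the 4 libraries (adjusted p 0.0519 to 0.135) and with the replicate number as a block (adjusted p = 0.0781). For the merged region from 1.0 kb before to 24.2 kb after the start, the log2 fold change was -0.97 to -0.62 without 1 library. With the block the call on this region held (adjusted p = 0.00254). Mgat4e overlaps the start of Kdm5b, and its part in the signal cannot be told apart.

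**Figure D4:**
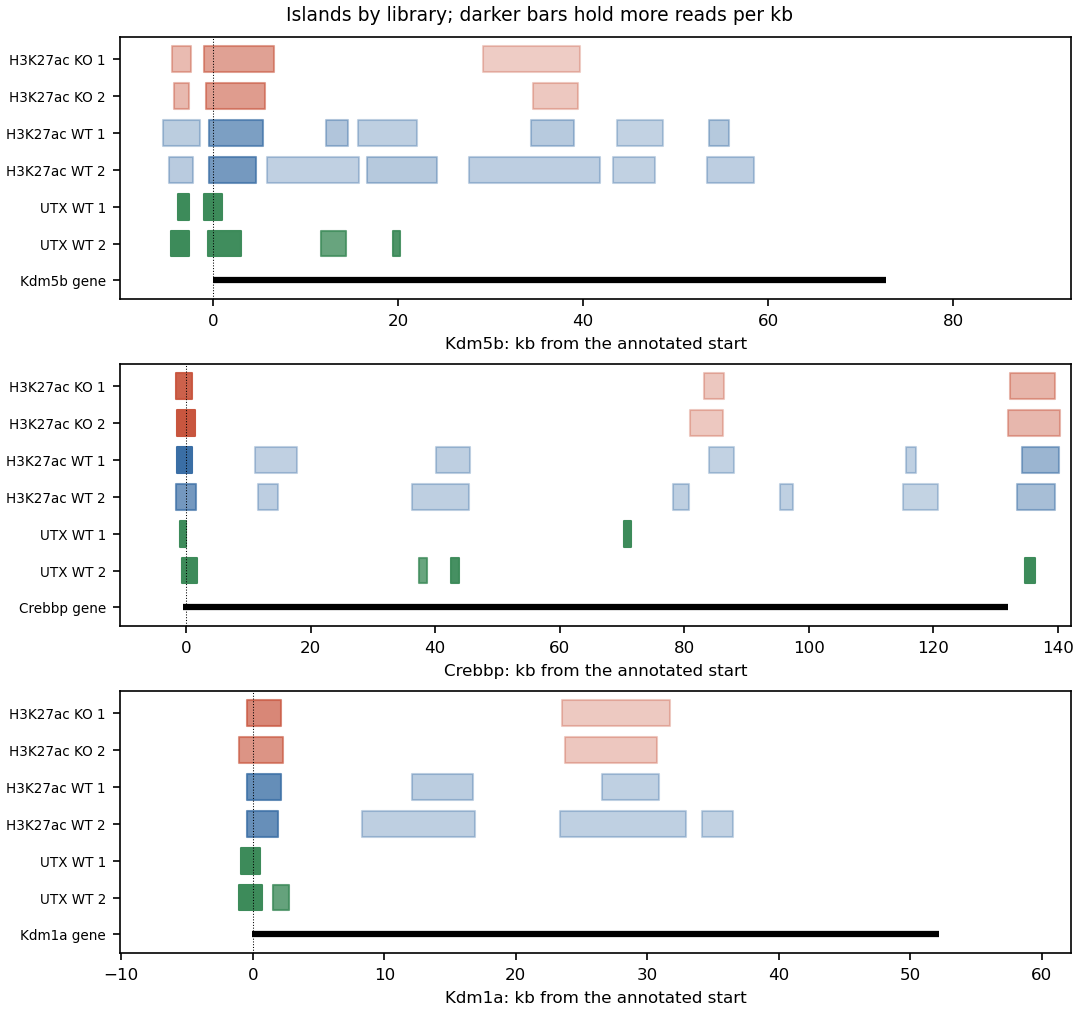
Islands of each H3K27ac and UTX library over Kdm5b, Crebbp and Kdm1a, drawn to scale by distance in kb from the annotated start, with KO libraries above WT libraries. The islands over each start are present in all 4 H3K27ac libraries, while islands inside the genes are more numerous in WT.

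Kdm5a, which acts on the same mark as Kdm5b, did not pass the test over its window. It held 141 and 109 rpm in KO and 113 and 148 rpm in WT (log2 fold change -0.10, SE 0.226, adjusted p = 0.773). The spread came from the window's edge. A region inside Ccdc77, 9.3 to 4.7 kb before the lower end of Kdm5a, reached into the window in KO library 1 and WT library 2 alone. The region over the lower end itself held 106 and 109 rpm in KO and 113 and 97.5 rpm in WT (-0.08, adjusted p = 0.537). The one inside Ccdc77 held 35.2 and 33.6 rpm in KO and 42.9 and 47.0 rpm in WT and fell (-0.51, SE 0.140, adjusted p = 0.0389), a call that was lost in 8 of 11 alternatives and without any 1 library (adjusted p 0.0555 to 0.161).

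Kdm1a (LSD1), which removes mono- and dimethyl marks from H3K4 together with CoREST, was lower without passing the test. Its window held 68.5 and 72.0 rpm in KO and 84.2 and 108 rpm in WT (log2 fold change -0.50, SE 0.173, adjusted p = 0.121). Both KO libraries lay below both WT libraries, an order that 29.6% of all windows showed. The island over the start held 46.9 and 51.2 rpm in KO and 55.1 and 50.1 rpm in WT, so here too the larger part of the difference lay inside the gene. A region at 8.32 to 16.9 kb had an island in both WT libraries (16.6 and 25.9 rpm) and in neither KO library. The islands of the window covered 10.8 and 10.4 kb in KO and 11.6 and 23 kb in WT.

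Kdm2a and Kdm2b, which act on H3K36 and bring CpG promoters under Polycomb control in the case of Kdm2b, did not pass the test over their windows. Kdm2a held 212 and 215 rpm in KO and 213 and 193 rpm in WT (log2 fold change 0.03, SE 0.0823, adjusted p = 0.786). With flanks of 10 kb in place of 5 kb its window was called higher (0.38, adjusted p = 0.0280). The islands that this setting added lay outside the gene, beyond the flanks of 5 kb. Kdm2b held 321 and 281 rpm in KO and 320 and 276 rpm in WT (-0.02, SE 0.119, adjusted p = 0.905). The libraries of both groups overlapped at each gene.

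At Kdm2b the region around the internal start fell and that over the outer start did not pass the test. The region around the internal start, 82.9 to 109 kb from the outer one, held 145 and 135 rpm in KO and 160 and 166 rpm in WT (log2 fold change -0.34, SE 0.0909, adjusted p = 0.0366), a call that was lost in 8 of 11 alternatives and without any 1 library (adjusted p 0.0548 to 0.182). The region over the outer start held 92.1 and 85.4 rpm in KO and 89.4 and 56.8 rpm in WT (0.18, adjusted p = 0.504). Whether the starts differ in their response was not tested. H3K27me3 was called inside Kdm2b, 34.9 to 40.9 kb from the outer start, at 0 and 24.7 rpm in KO and 38.3 and 41.9 rpm in WT. KO library 1 had no island there, so the window was not tested. Its smallest island anywhere was 7.24 rpm, which is not the limit for a call over this stretch. The 25th percentile of reads per island in KO library 1 was 56, and the island of KO library 2 at Kdm2b held 62 reads. Both H3K27ac (12.7 and 10.5 rpm in KO, 6.97 and 9.24 rpm in WT) and UTX (68.6 rpm, library 1) were called over the same stretch.

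Kdm4a, a demethylase of H3K9 and H3K36, held 163 and 174 rpm in KO and 144 and 152 rpm in WT. Both KO libraries lay above both WT libraries, and the log2 fold change of 0.14 (SE 0.0955) did not pass the test (adjusted p = 0.346). The region over its start held 69.2 and 71.1 rpm in KO and 60.3 and 56.0 rpm in WT (0.15, adjusted p = 0.294).

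Neither acetyltransferase gene passed the test. Ep300 carried 1 H3K27ac island per library, over its start, with 172 and 183 rpm in KO and 165 and 160 rpm in WT. Both KO libraries lay above both WT libraries, and the log2 fold change was 0.09 (SE 0.0812, adjusted p = 0.475). Crebbp held 134 and 155 rpm in KO and 183 and 172 rpm in WT over its window, or 145 ± 14.7 and 178 ± 7.80 rpm (SD, n = 2 each), with a log2 fold change of -0.34 (SE 0.0994) that did not pass the test (adjusted p = 0.0883). The island over the Crebbp start held 70.6 and 83.3 rpm in KO and 72.2 and 58.5 rpm in WT. The other islands summed to 63.9 and 71.9 rpm in KO and to 111 and 114 rpm in WT. These sums include an island at the gene's far end, almost wholly outside Crebbp, that overlapped Trap1. That island held 53.5 and 56.8 rpm in KO and 61.5 and 48.5 rpm in WT.

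Inside Crebbp, 3 regions had islands in both WT libraries and in neither KO library, at 11 to 17.8, 36.2 to 45.6 and 115 to 121 kb from the start. They held 18.0 and 10.4 rpm, 17.4 and 29.4 rpm, and 4.61 and 11.5 rpm in the WT libraries, and UTX of WT library 2 lay under the second. Another region inside the gene, at 81.0 to 88.0 kb, went the other way, with 10.4 and 15.1 rpm in KO and 9.75 and 0 rpm in WT. Regions at 78.2 to 80.8 and 95.4 to 97.4 kb had an island in WT library 2 alone (8.26 and 5.83 rpm). The number of islands and the length they covered moved with the result: the window had 3 islands in each KO library, covering 13 and 16.4 kb, against 6 and 7 in the WT libraries, covering 26.2 and 32 kb. Per covered length the log2 fold change was 0.68 (adjusted p = 0.301). It was -0.075 with flanks of 2 kb and -0.11 with none (adjusted p 0.831 and 0.837). These settings cut the island at the gene's far end unevenly. With flanks of 2 kb that island no longer counted in WT library 1 (61.5 rpm). With none it counted in KO library 2 alone (56.8 rpm).

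**Figure D5:**
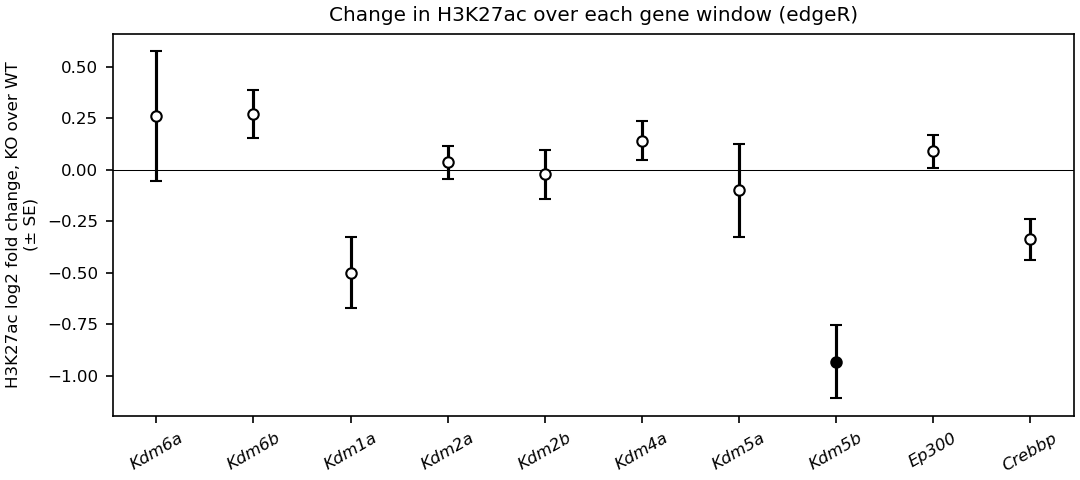
Log2 fold change of H3K27ac over each gene's window, KO over WT, from edgeR, with bars of 1 SE. The filled point, Kdm5b at -0.93, is the one window past the adjusted threshold, and the 9 open points lie between -0.50 and 0.27.

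Over the 10 windows, 40 merged H3K27ac regions were counted. Of these, 25 had an island in all 4 libraries, 0 in both KO and neither WT library, and 6 in both WT and neither KO library (1 in Kdm1a, 2 in Kdm5b and 3 in Crebbp). Genome-wide, 5.18% of 34766 regions were of the KO kind and 9.28% of the WT kind. All 6 lay inside the genes, away from the starts. KO library 1 had more island reads in all than WT library 1, which held an island at each of the 6. By number of islands, KO library 2 had the fewest, 26483, beside 30143 in KO library 1 and 29662 and 32167 in the WT libraries. The smallest island anywhere was 2.17 and 2.16 rpm in the KO libraries and 1.93 rpm in WT library 1, where the weakest of the 6 held 4.61 rpm. Such a smallest island does not give the level at which an island is called at a given place. The part of depth and of island calling in these 6 was not tested. Among the 25, 0 rose and 3 fell (in Kdm2b, Kdm5b and beside Kdm5a), where 25.7% of all regions tested passed, 11.7% higher and 14% lower. Scaled to total island reads without TMM, 3268 regions rose and 2069 fell in place of 2209 and 2637, and the median log2 fold change of all regions moved to 0.12.

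In H3K27me3, 0 of the 2 windows that could be tested passed. Of the 10 windows, 7 had no H3K27me3 island in any library (58.2% of all windows), Kdm2b had one in 3 of 4 libraries, and Kdm6b and Kdm5b had one in all 4 (24.6%). At Kdm5b the mark held 246 and 256 rpm in KO and 222 and 209 rpm in WT (log2 fold change 0.16, SE 0.208, adjusted p = 0.862). The value was 1.39 with reads of edge islands in proportion to their overlap (adjusted p = 0.691) and 0.044 without WT library 2. Both KO libraries lay above both WT libraries, as in 23.9% of windows tested. This domain did not touch Kdm5b: it began 4.12 to 4.92 kb beyond the gene's end and covered Syt2. Over all 5395 windows tested, 0 passed (0%), with 465 at an unadjusted edgeR p under 0.05 and 83 called by DESeq2.

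Of 100 windows tested in 6 lists of related enzymes and partners outside the 10 genes, 5 rose and 7 fell in H3K27ac, where 18.9% of all windows passed. By unadjusted edgeR p under 0.05, 14 were higher and 10 lower, and DESeq2 called 9 higher and 9 lower. Among 17 windows tested of 19 other histone demethylases, 0 rose and Kdm7a, which acts on H3K9 and H3K27, fell, with 103 and 115 rpm in KO and 150 and 153 rpm in WT (log2 fold change -0.51, SE 0.0975, adjusted p = 0.0377). By unadjusted p, and likewise by DESeq2, 1 was higher and 1 lower, and 15 of the 19 were UTX occupied. Among 20 other acetyltransferase genes and their partners, 0 rose and Brpf3, a scaffold of MYST acetyltransferases, fell, with 129 and 170 rpm in KO and 239 and 264 rpm in WT (-0.79, SE 0.165, adjusted p = 0.0452). By unadjusted p, and likewise by DESeq2, 0 were higher and 2 lower. The median log2 fold changes of these lists were -0.0012 and -0.09.

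Among 20 deacetylase and corepressor genes, 2 rose and 1 fell. Hdac4 held 289 and 269 rpm in KO and 146 and 123 rpm in WT (log2 fold change 1.02, SE 0.110, adjusted p = 0.0153), and Hdac8 held 34.0 and 43.9 rpm in KO and 17.4 and 15.6 rpm in WT (1.20, SE 0.174, adjusted p = 0.0236). Hdac7 held 326 and 326 rpm in KO and 432 and 433 rpm in WT (-0.45, SE 0.0757, adjusted p = 0.0300). The libraries did not overlap at any of the 3. Of this list, 4 windows were higher and 1 lower by unadjusted p, and 3 and 1 by DESeq2. In it 13 of 20 windows were UTX occupied, and its median log2 fold change was 0.0081.

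The partners of LSD1 and of KDM2B had the widest range of these lists, with log2 fold changes of -1.60 to 1.53. Of 16 windows tested, 2 rose and 2 fell, with a median of -0.0087, and 14 were UTX occupied. By unadjusted p 5 were higher and 3 lower, and by DESeq2 4 and 3. Gfi1, a repressor that brings LSD1 to its targets in granulocytic and lymphoid cells, held 233 and 156 rpm in KO and 64.1 and 67.1 rpm in WT (log2 fold change 1.53, SE 0.240, adjusted p = 0.0268). Gfi1b, its relative in erythroid cells and megakaryocytes, held 80.7 and 127 rpm in KO and 291 and 294 rpm in WT (-1.54, SE 0.231, adjusted p = 0.0244). The erythroid marker sums were lower and the B cell sums higher in KO as well, and their part in these changes was not tested. With reads of edge islands in proportion to their overlap, the log2 fold change was 0.80 at Gfi1 and -1.51 at Gfi1b. Per covered length it was 0.70 at Gfi1 and -1.26 at Gfi1b, and neither passed. Rcor2, a CoREST protein, held 24.9 and 26.3 rpm in KO and 9.11 and 11.1 rpm in WT (1.29, SE 0.190, adjusted p = 0.0239). Rybp, a subunit of Polycomb repressive complex 1, held 36.6 and 38.8 rpm in KO and 79.4 and 61.7 rpm in WT (-0.94, SE 0.145, adjusted p = 0.0258).

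Among 13 genes of the UTX complex and of the H3K27 methyltransferase PRC2, 0 rose and Ezh1, a catalytic subunit of PRC2, fell, with 37.4 and 44.9 rpm in KO and 71.3 and 65.9 rpm in WT (log2 fold change -0.78, SE 0.125, adjusted p = 0.0276). By unadjusted p, and likewise by DESeq2, 0 were higher and 1 lower, the median was -0.11, and 11 of 13 were UTX occupied. Among 14 acetyl-lysine readers and their relatives, with a median of 0.04, Brd1 rose to 109 and 113 rpm in KO, against 76.1 and 57.2 rpm in WT (0.70, SE 0.150, adjusted p = 0.0467). Mllt3, a YEATS-domain reader known in stem cells and megakaryocytes, fell to 75.5 and 57.0 rpm in KO, against 160 and 186 rpm in WT (-1.42, SE 0.202, adjusted p = 0.0228), and 10 of the 14 readers were UTX occupied. By unadjusted p 4 readers were higher and 2 lower, and by DESeq2 1 and 1. In H3K27me3, no window of these 6 lists passed edgeR or DESeq2, and none had an unadjusted p under 0.05. Each of these 12 calls in H3K27ac was lost or turned under 3 (Gfi1b) to 8 (Brpf3 and Brd1) of the alternatives. Of the 12, 3 held without KO library 1 (Gfi1, Gfi1b and Mllt3), 2 without KO library 2 (Gfi1 and Gfi1b), 2 without WT library 1 (Brd1 and Hdac4) and 0 without WT library 2, with adjusted p between 0.0406 and 0.158. With the replicate number as a block 9 of the 12 were lost (adjusted p 0.0508 to 0.0742), all but Gfi1b, Hdac4 and Brpf3.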

How the data were processed

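Deposited island lists of 11 of the 14 samples were used, 1 per library, with the authors' whole-number counts of reads per island. Per the submitters' processing notes, islands were called with SICER on build mm10. The SICER version, aligner, gap, threshold and control are not given in the sources used here. In the deposited files island widths were multiples of 200 bp, and neighbouring islands lay at least 800 bp apart (H3K27ac, H3K27me3) or 400 bp apart (UTX, IgG). Replicates were not pooled. Both inputs and the other IgG were not analysed here. Since reads elsewhere were not used here, a weak signal that was not called counts as 0, and depth means island reads. Counting error, which these values do not show, is largest for IgG and UTX.

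Genes were the protein-coding genes of a RefSeq table of build GRCm38.p6 on chromosomes 1 to 19, X and Y. For each gene and library, the reads of all islands that met the gene span plus 5 kb were summed, whole islands included, and given as RPM, that is reads per 1000000 island reads of the library. Windows with an island in all 4 libraries of a mark were tested, KO over WT, by the two-sided quasi-likelihood test of edgeR 4.0.16 (R 4.3.3, glmQLFit and glmQLFTest, total island reads as library size, TMM scaling), adjusted by Benjamini-Hochberg over all windows at 0.05. Each fit used 2 KO and 2 WT libraries. SE was taken from the F statistic. H3K27ac islands of the 4 libraries were also merged where they overlapped, and regions with an island in all 4 were tested in the same way. UTX occupancy was described, with no test. The scripts were tested on simulated counts. Python 3.11.15, pandas 2.3.3 and matplotlib 3.10.9 were used for the rest.

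Alternatives were DESeq2 1.42.0, no TMM, islands in at least 2 libraries, at least 50 reads, islands above the 25th percentile, reads per covered length, flanks of 2 kb, 10 kb and none, edge islands in proportion, each library left out, and the replicate number as a block. Counts of islands present in 1 group only were added after seeing the data. The replicate numbers of the labels were not taken to pair libraries, since no label says so and there are only 2 numbers per group.

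The 10 genes, 6 lists of related genes and 7 marker lists (180 genes, all matched) were chosen with earlier results of these data known. Named were the 10 genes, Uty, each tested region past the threshold in their windows (otherwise the strongest), their neighbours, list genes past the threshold (at most 4 per list and direction), the 3 windows most like Kdm6a, and promoters of 4 genes with H3K27ac and UTX over the start. Other regions of these windows were named after their values were seen. A comparison of UTX, JMJD3 and UTY protein sequences was planned and is not reported here.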

Additional observations from a re-analysis of the deposited data

How the results depend on the processing

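Directions are KO over WT on the log2 scale. For H3K27ac windows, 2429 passed edgeR. DESeq2 called 3699, reads per covered length 0, the fit with the replicate number as a block 1234, and fits without 1 library 0 to 858. For H3K27me3 windows, 0 passed edgeR and 0 with the block, DESeq2 called 83, total island reads without TMM 2, reads per covered length 2 (median log2 fold change of all windows 0.23) and fits without 1 library 0 to 5. For H3K27ac regions, 4846 passed, with 8514 for islands in at least 2 libraries, 223 per covered length and 2496 to 3286 without 1 library. UTX occupancy, of all windows and of the 10 genes, stayed within 1.5 times under the flank, island and left-out-library alternatives.

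Reads per covered length, which divides out island length, turned the most directions. Over windows it gave 0.15 at Kdm1a, -0.11 at Kdm2a, 0.26 at Kdm5a, 0.40 at Kdm5b, -0.19 at Ep300, 0.68 at Crebbp and 0.45 for H3K27me3 at Kdm6b. Among list genes it gave 1.38 at Rybp, -0.42 at Rcor2, 0.050 at Mllt3, -0.96 at Brd1, -0.12 at Hdac4, -0.83 at Hdac8 and 0.68 at Kdm7a. Over regions it gave -0.70 at the Kdm4a start, 0.69 at Kdm5b and -0.19 at Ep300. None of these passed the test. The Kdm2b window turned without TMM (0.014) and that of Ep300 with flanks of 10 kb (-0.13). With no flank the window values were 0.42 at Kdm6b, 0.0044 at Kdm4a and -0.030 at Kdm5a, none of which passed. At Kdm6b this setting dropped the island over Naa38 and Tmem88 in WT library 2 alone (53.4 rpm). At Kdm4a it dropped the island at the gene's far end in KO library 2 alone (30.5 rpm).

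Leaving out 1 library turned directions at genes that had not passed. Ranges over the libraries left out were -0.12 to 0.77 at Kdm6a, -0.014 to 0.078 at Kdm2a, -0.14 to 0.078 at Kdm2b, -0.32 to 0.14 at Kdm5a and -0.39 to 0.11 for H3K27me3 at Kdm6b. Without a turn, they were 0.14 to 0.40 at Kdm6b, -0.70 to -0.28 at Kdm1a and 0.072 to 0.21 at Kdm4a. Over regions they were -0.17 to 0.58 at the Kdm6a start and -0.013 to 0.049 at Ep300. The block, which pairs libraries by number, ended the call at Kdm5b (-0.92, adjusted p = 0.0781) and at 9 of the 12 named list genes. Same-numbered libraries did not deviate together, with correlations of -0.0084 (H3K27ac windows), -0.021 (H3K27me3 windows) and 0.047 (H3K27ac regions). The causes of these changes were not tested, apart from those the alternative itself makes. With 2 libraries per group, and with signal outside islands not used here, small differences in either direction were not detectable.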
